A study of Mus musculus with 74 samples.

Results

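Interferon-inducible GTPases and the transcription factor Irf1 were followed across 74 mouse 2-colour arrays in 11 groups. The 7 genes were chosen by name, with earlier results of these data known. Taken was every probe whose platform annotation gave the symbol Tgtp1, Gbp2, Gbp3, Igtp, Irgm1, Iigp1 or Irf1. Counts of the set beside the share of all probes are therefore descriptions and not a test of the set. Each gene had 1 probe, so the set is 7 of 16463 probes and 7 of 13409 named genes. 4 groups of 6 arrays held total thymocytes. In 3 of them, DO11.10 T cell receptor transgenic thymocytes taken 3, 6 or 12 h after injection of antigenic peptide were set against thymocytes of uninjected DO11.10 animals on the same array. In the fourth, DO11.10 thymocytes were set against mhc -/- thymocytes. The other 7 groups held a T cell hybridoma derived from DO11.10, each time with untreated cells of the hybridoma as partner. The cells carried HDAC7-VP16 on 10 arrays, MEF2D-VP16 on 4, Nur77 on 4, and on 8 a construct the labels call HDAC7 DP, stimulated with PMA and ionomycin for 2.5 h. The rest carried empty MSCV retrovirus, with the same stimulation on 8 arrays and without it on 12 (MSCV_A) and 4 (MSCV_B). VP16 is a viral transcription activation domain, and PMA with ionomycin imitates T cell receptor signalling. The strain, sex and age of the animals, the MHC genes deleted and what DP stands for were not stated. Total thymocytes can also hold stromal and blood cells.

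The IRG and GBP families are large GTPases of cell-autonomous immunity. Interferon-gamma signals through its receptor and JAK kinases, and many of its target promoters hold a gamma-activated sequence (GAS). Irf1 is an early target of interferon-gamma, and its protein binds interferon-stimulated response elements (ISRE) in later target genes. Irgm1 is a regulatory IRG protein with a GMS motif that keeps effector IRG proteins such as Iigp1 (also called Irga6) and Tgtp1 (Irgb6) inactive on the cell's own membranes. Igtp (Irgm3) is a second GMS protein. Effector IRG proteins and the guanylate-binding proteins Gbp2 and Gbp3 gather on the vacuoles of intracellular parasites. In the thymus, strong T cell receptor signals that lead to negative selection also induce NF-kB target genes.

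Start regions are shown because interferon and NF-kB act on such genes through short motifs near the start. RefSeq promoters of GRCm38.p6, running from 250 bases before to 50 bases after the start, matched 6 of the 7 genes with 8 start sites. They were searched on both strands for GAS as TTCNNNGAA, for a short ISRE as GAAANNGAA and for the kB motif. The stretch from 20 bases before the first match to 20 bases after the last is given 5′ to 3′ on the gene's strand, with the matches in capitals.
Tgtp1, chr11:48992295-48992354, minus strand: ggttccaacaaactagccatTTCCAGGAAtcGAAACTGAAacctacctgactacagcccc
Igtp, chr11:58199491-58199550, plus strand: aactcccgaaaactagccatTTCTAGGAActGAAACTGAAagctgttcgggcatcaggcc
Irgm1, chr11:48871416-48871470, minus strand: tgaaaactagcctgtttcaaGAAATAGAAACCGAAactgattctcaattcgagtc
Gbp3, chr3:142559980-142560034, plus strand: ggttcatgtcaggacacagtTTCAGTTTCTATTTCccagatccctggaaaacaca
Gbp2, chr3:142620585-142620699, plus strand: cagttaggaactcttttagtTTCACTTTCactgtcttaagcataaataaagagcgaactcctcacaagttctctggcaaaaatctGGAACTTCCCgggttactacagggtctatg
Irf1, chr11:53769904-53770030, plus strand: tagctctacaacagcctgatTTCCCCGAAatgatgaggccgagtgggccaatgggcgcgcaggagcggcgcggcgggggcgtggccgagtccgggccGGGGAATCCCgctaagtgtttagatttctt

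The ISRE letters were found in 5 of the 6 genes (Tgtp1, Igtp, Irgm1, Gbp2 and Gbp3), against 8.56% of all 32851 RefSeq promoters. GAS letters were found in 3 of the 6 (Tgtp1, Igtp and Irf1), against 8.30% of promoters. Both together were found in Tgtp1 and Igtp and in 1.07% of promoters. These shares are over promoters, whereas a gene was counted if any of its start sites had a match. The 6 genes had 8 start sites, and the second start sites of Gbp3 and Irf1 held no match. In both genes the GAS match is followed after 2 bases by the same ISRE letters, 77 bases upstream of the Tgtp1 start and 34 bases upstream of the Igtp start. In Irgm1 and in Gbp3 a pair of ISRE matches overlap by 3 bases, on the reverse strand in Gbp3. Irf1, which has no ISRE match in this window, has GAS 90 and kB 13 bases upstream of its start. The kB letters also occur after the Gbp2 start, and they occur in 8.46% of promoters. A match of letters is a description and not evidence of binding.

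Values are log2 ratios of the named RNA over its partner, centred on each array's median, so that 1 unit is a 2-fold difference. A positive value means more RNA after peptide, in DO11.10 thymocytes or with the named construct. The direction was read from marker genes. B2m, the light chain of MHC class I, lay 2.97 to 3.70 above mhc -/- on the 6 arrays, Nr4a1 (Nur77) averaged 4.50 on the Nur77 arrays, and Egr1, Egr2, Nr4a1 and Il2 were above 0 on 8 of 8 stimulated empty-virus arrays. A ratio gives no level within a sample, so the labelled cell types could not be checked by the level of their markers. Every group held both dye orientations in equal number, and each fit had a term for it. In MSCV_A, HDAC7-VP16 and MSCV_B, arrays of opposite orientation correlated negatively over probes (median r -0.40, -0.48 and -0.24), so their values carry a large dye component. Genes count as called where limma gave an adjusted p (Benjamini-Hochberg, over all 16463 probes) below 0.05, and rose and fell are used of called genes. Whether the arrays of a group came from separate animals or cultures is not stated, so the p-values reflect spread among arrays that may be technical only.

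**Figure D1:**
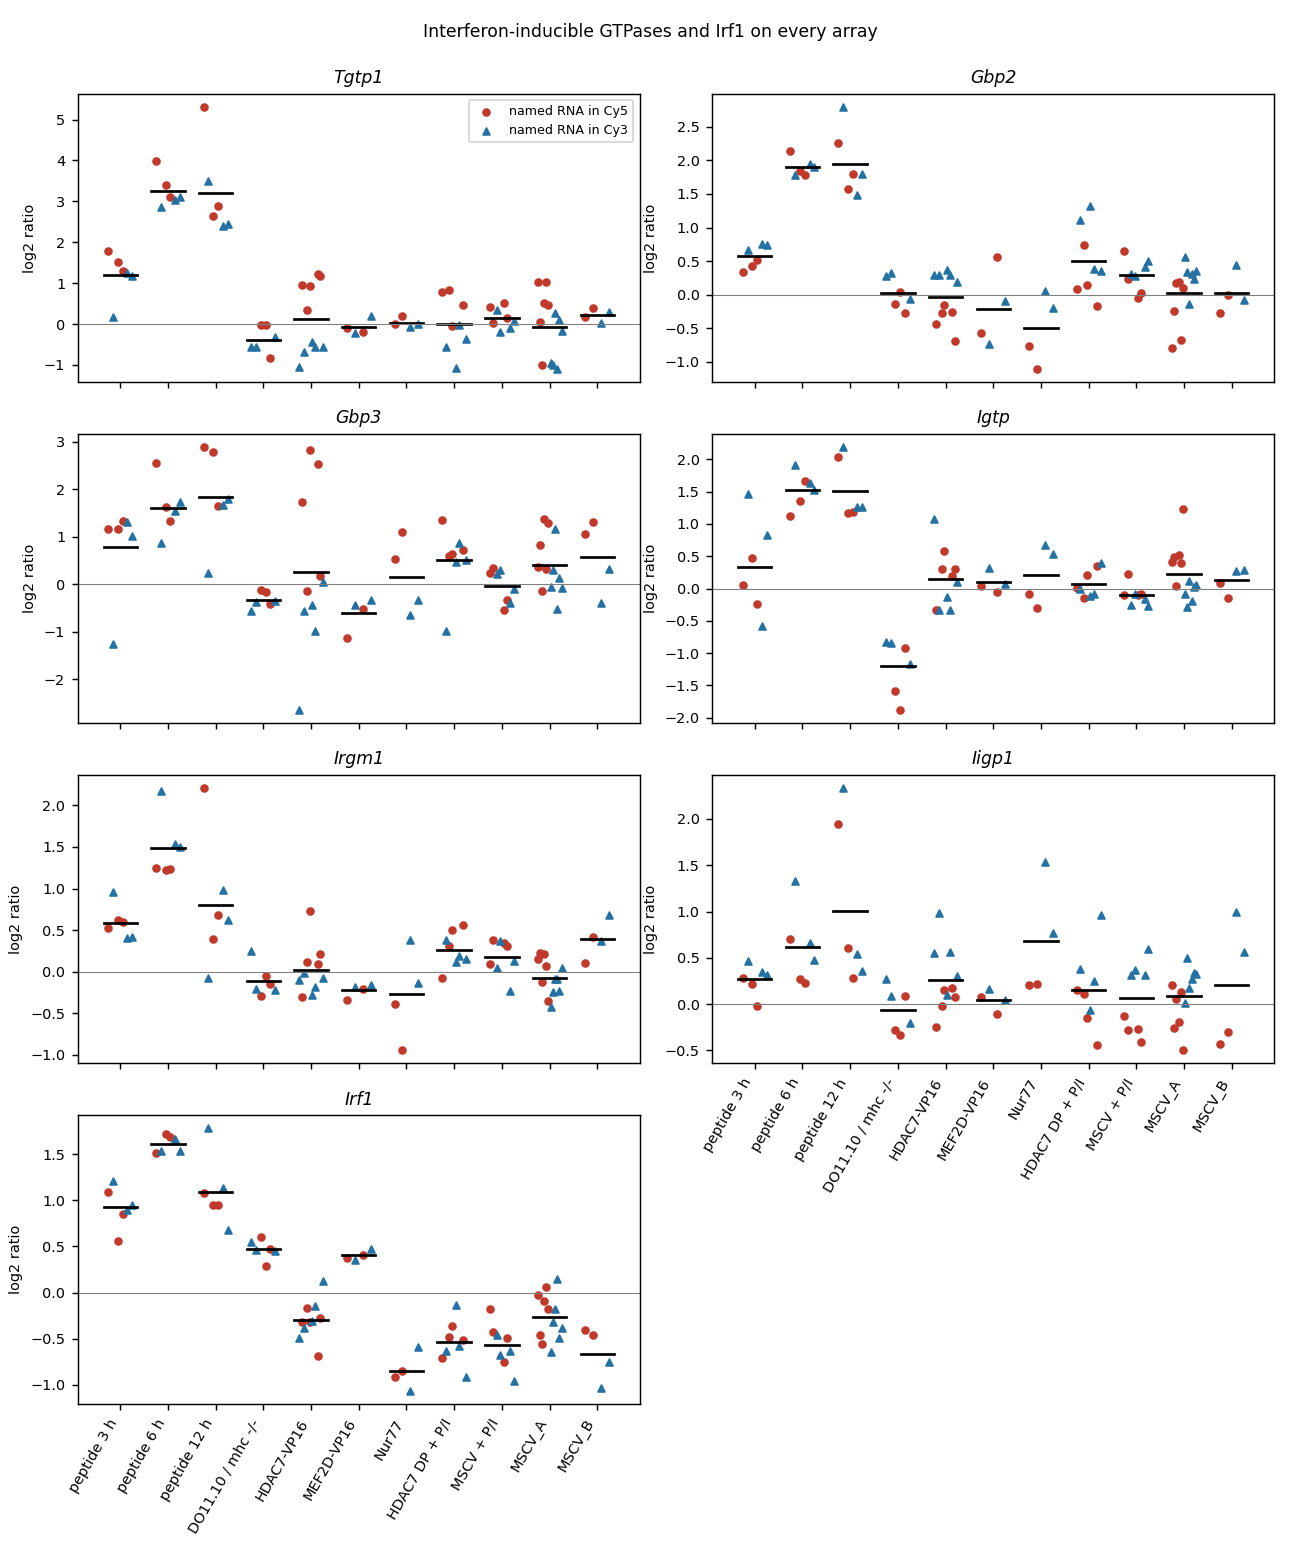
Log2 ratio (y axis) of each gene on each of the 74 arrays, by group (x axis, P/I for PMA and ionomycin). Red circles have the named RNA in Cy5, blue triangles in Cy3, and black lines are group means. By mean, 6 h and 12 h after peptide are the highest groups for every gene but Iigp1, Igtp is lowest in DO11.10 over mhc -/- thymocytes, and Irf1 lies below 0 in most hybridoma arrays except those with MEF2D-VP16.

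The course after peptide asks how thymocyte RNA changes while strong antigen acts. Irf1 and 3 GTPases rose by 3 h, the whole set was higher at 6 h, and 5 of the 7 were higher at 12 h. Tgtp1 changed most: 2.30-fold at 3 h, 9.52-fold at 6 h and 9.16-fold at 12 h. At 6 h it ranked 2 from the top of all 16463 probes, and again at 12 h. The median change of the 7 genes was 0.59, 1.61 and 1.52 at the 3 times, against -0.00, 0.01 and 0.01 over all probes. In bulk thymocytes, more cells of a type that carries these RNAs and more RNA per cell cannot be told apart.

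At 3 h, 4 of the 7 rose, against 1.49% of all probes called higher and 2.71% called in either direction. Tgtp1 lay between 0.17 and 1.79 (median 1.28) on the 6 arrays. Irf1 lay between 0.56 and 1.21 (median 0.92). Both were above 0 on 6 of 6 arrays. In limma the change of Tgtp1 was 1.20 ± 0.15 (SE; adjusted p = 0.0095) and that of Irf1 was 0.93 ± 0.09 (adjusted p = 0.0031). Gbp2 rose by 0.58 ± 0.06 (adjusted p = 0.0045) and lay between 0.34 and 0.76. Irgm1 rose by 0.59 ± 0.09 (adjusted p = 0.019) and lay between 0.40 and 0.96.

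The other 3 genes were not called at 3 h. Gbp3 averaged 0.79 (SE 0.31, adjusted p = 0.26), with 5 arrays between 1.03 and 1.33 and replicate 2 at -1.26. Without that array Gbp3 was called at 1.20 (adjusted p = 0.0014 in limma). The same array gave the lowest Tgtp1 value of the group and the highest Igtp value, 1.47. Igtp was spread from -0.57 to 1.47 around a mean of 0.34 (adjusted p = 0.58), and Iigp1 averaged 0.27 (adjusted p = 0.097). Of the calls at 3 h, Irgm1 lost its own without replicate 3, 4, 5 or 6 (adjusted p 0.062 to 0.089) and Tgtp1 without replicate 5 or 6 (adjusted p = 0.057 and 0.054). Their changes in these fits were 0.58 to 0.64 and 1.11 to 1.13. Fits without replicate 3, 4, 5 or 6 called 100 to 155 of 16463 probes, against 446 with all arrays.

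At 6 h, 7 of 7 rose, against 2.03% of probes called higher and 4.57% called in either direction, and each gene was above 0 on 6 of 6 arrays. Tgtp1 lay between 2.87 and 3.99 (median 3.11), with a change of 3.25 ± 0.11 (SE; adjusted p = 4.8e-06 in limma). Gbp2 lay between 1.78 and 2.14, a 3.72-fold mean change (1.90 ± 0.07, adjusted p = 4.8e-06). Both encode GTPases that act at the vacuoles of intracellular parasites. Irf1 was the tightest, between 1.52 and 1.72, a 3.05-fold change (1.61 ± 0.06, adjusted p = 5.3e-06). Gbp3 rose 3.05-fold (1.61 ± 0.17, adjusted p = 0.0017), Igtp 2.90-fold (1.53 ± 0.09, adjusted p = 7.9e-05) and Irgm1 2.81-fold (1.49 ± 0.09, adjusted p = 0.00012). Iigp1 changed least, 1.53-fold (0.61 ± 0.12, adjusted p = 0.028), with arrays from 0.23 to 1.33. Iigp1 lost its call without replicate 3, 4 or 5 (adjusted p 0.062 to 0.099).

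At 12 h, 5 of the 7 rose, against 1.66% of probes called higher and 3.38% called in either direction. Tgtp1 lay between 2.40 and 5.31 (median 2.77) and changed by 3.19 ± 0.36 (SE; adjusted p = 0.013 in limma). Gbp2 changed by 1.95 ± 0.18 (adjusted p = 0.0071), with arrays from 1.49 to 2.80. Gbp3 was spread from 0.24 to 2.89 around 1.84 (adjusted p = 0.021). Igtp changed by 1.52 ± 0.17 (adjusted p = 0.013) and Irf1 by 1.09 ± 0.14 (adjusted p = 0.017). The regulator Irgm1 averaged 0.80 (adjusted p = 0.13), from -0.07 to 2.21, and Iigp1 averaged 1.01 (adjusted p = 0.13), from 0.28 to 2.33. Both extremes of Irgm1 came from replicates 1 and 2.

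Calls at 12 h varied with the arrays fitted, and values varied with the slide series. Of the 5 calls, Gbp2 kept its adjusted p under 0.05 whichever array was left out (highest 0.048). Gbp3 and Igtp lost theirs without replicate 3, 4, 5 or 6 (adjusted p 0.051 to 0.11), Irf1 without replicate 3, 4 or 5 (0.073 to 0.088) and Tgtp1 without replicate 4, 5 or 6 (0.050 to 0.073). Where calls were lost, the changes were 1.70 to 2.04 for Gbp3 and 1.59 to 1.60 for Igtp. They were 1.10 to 1.11 for Irf1 and 3.28 to 3.38 for Tgtp1. Fits without replicate 3, 4, 5 or 6 called 46 to 94 of 16463 probes, against 557 with all arrays. Replicates 1 and 2 at 6 h and at 12 h were on slides the titles number in series 13, as were the 6 arrays of 3 h, while the other 4 of each had no series number. On the 2 series 13 arrays of 12 h, Tgtp1 averaged 4.40, against 2.59 on the 4 others. Igtp averaged 2.12 against 1.22, Gbp2 2.53 against 1.66, and Iigp1 2.14 against 0.45. Arrays of the slide series did not overlap for these 4 genes. With 2 arrays against 4 this is a weak separation, and the share of all probes that show it was not counted. Gbp3 averaged 1.56 against 1.98. On the 4 arrays without a series number alone, Iigp1 (0.45, adjusted p = 0.0099) and Irgm1 (0.67, adjusted p = 0.0026) were called as well, so that 7 of 7 were higher there. That fit called far more of all probes too, 1394 of 16463 higher and 4067 in either direction. With slide series as a block, Iigp1 was called at 1.29 (adjusted p = 0.00027).

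**Figure D2:**
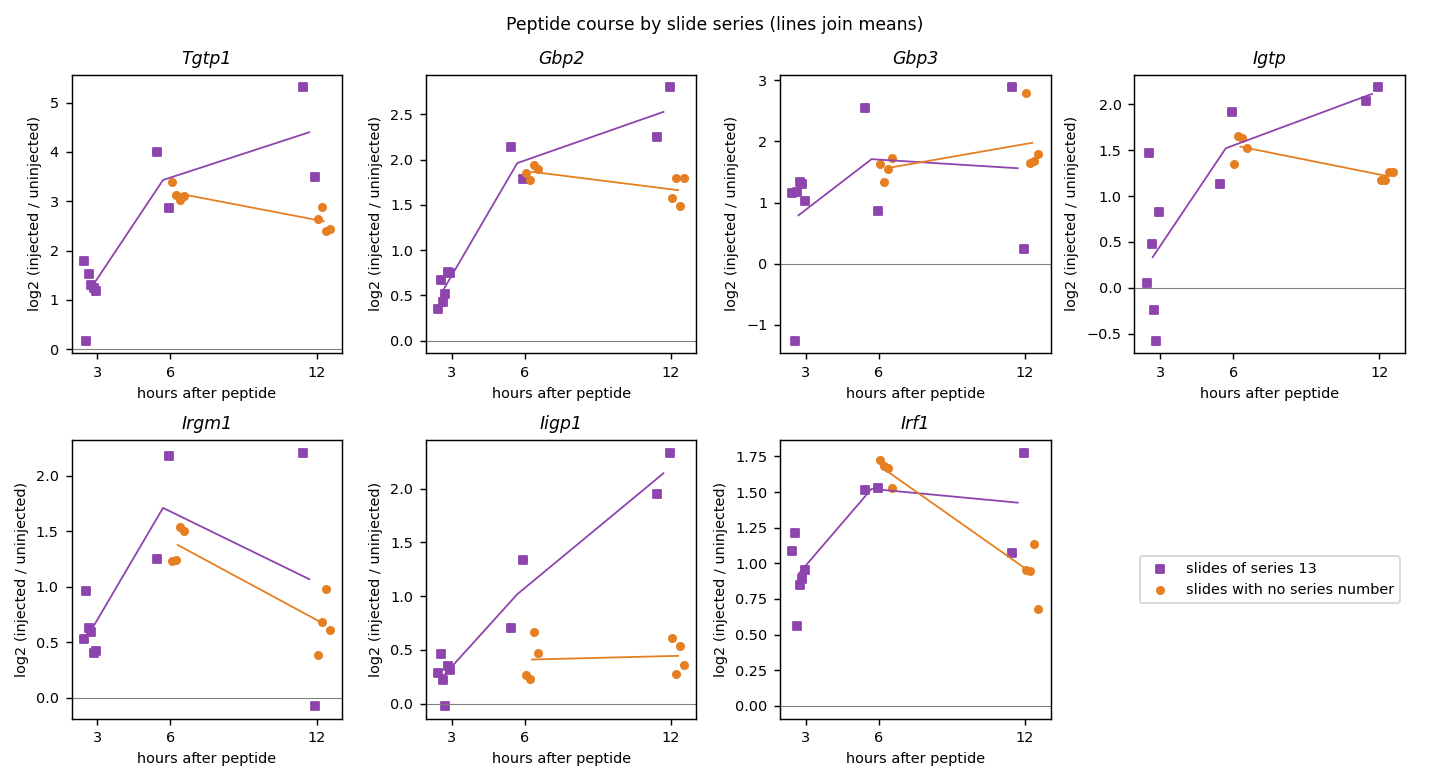
Log2 ratio of injected over uninjected thymocytes (y axis) at 3, 6 and 12 h (x axis) for each gene, 6 arrays a time. Purple squares are slides of series 13, orange circles are slides with no series number, and lines join their means. From 6 h to 12 h Tgtp1, Gbp2 and Igtp lie higher on series 13 (Tgtp1 3.43 and 4.40) and lower on the other slides (Tgtp1 3.16 and 2.59).

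Markers of other cells moved with the slide series at 12 h. The median of 11 measured macrophage and dendritic cell markers was 0.93 and 0.53 on the 2 series 13 arrays, against -0.06 to 0.09 on the 4 others. At 3 h the same median lay between -0.21 and -0.01 on the 6 arrays, and at 6 h between -0.35 and -0.13. Of those markers 0, 1 and 1 rose at 3, 6 and 12 h, and 1, 4 and 1 fell, among them Cd68, Adgre1, Tyrobp and C1qb at 6 h. Of 11 thymic epithelial genes, 4, 5 and 2 fell at 3, 6 and 12 h, with list medians of -0.37, -0.27 and 0.05. The 2 that fell at 12 h were Prss16 (-1.98, -1.84 and -1.96 at the 3 times) and Psmb11 (-1.16, -1.73 and -1.97), proteases of cortical epithelium, whereas the list median lay between 0.04 and 0.40 on the 6 arrays of 12 h and 3 of the 11 rose from 6 h to 12 h. Of 10 T cell, 6 B cell and 11 NK and effector genes, 1, 0 and 1 rose at 3 h, 0, 0 and 2 at 6 h and 0, 0 and 2 at 12 h. At 6 h, 1 of each list fell, and at 12 h 1 T cell gene. The T cell surface gene Thy1 fell by 0.60 at 6 h and by 0.75 at 12 h. Gzmb, an effector protease, rose at the 3 times (0.98, 1.49 and 1.08), and Tbx21, which encodes the transcription factor T-bet, rose by 1.33 at 6 h. The erythroid gene Alas2 fell at 3 h (-1.32) and 6 h (-0.81). The part of these cells in the GTPase values was not tested.

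Differences between times were tested in 1 fit of the 18 peptide arrays. From 3 h to 6 h Gbp2 rose by a further 1.32 ± 0.17 (SE; adjusted p = 0.0074 in limma), and its arrays at 6 h did not overlap those at 3 h. Only 2 of 16463 probes (0.0121%) were called in that difference, and the other was Gbp2b, the gene next to Gbp2, at 1.12 (adjusted p = 0.037). Tgtp1 had the largest difference of any probe, 2.05 ± 0.35, and missed the threshold (adjusted p = 0.051), although its arrays at the 2 times did not overlap either. How large a share of all probes lacked overlap between these times was not counted. Igtp (1.20, adjusted p = 0.20), Irgm1 (0.90), Gbp3 (0.82), Irf1 (0.68, adjusted p = 0.17) and Iigp1 (0.35) were also higher at 6 h by mean without being called. With slide series as a block, 5 of the 7 were called higher at 6 h: Tgtp1 (2.74), Igtp (1.49), Iigp1 (1.11), Irf1 (0.81) and Gbp2. The block fit called 98 of 16463 probes higher and 118 in either direction. All 3 h arrays were of series 13, so the block term came from 6 h and 12 h together. For Tgtp1 the slide series differed more at 12 h (4.40 on series 13 against 2.59) than at 6 h (3.43 against 3.16). The block values for 6 h over 3 h thus depend on the 12 h arrays too.

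From 6 h to 12 h, 0 of the 7 were called, against 3.18% of probes, and 2 had an unadjusted p under 0.05 in limma. These were Irf1 (-0.51, adjusted p = 0.057) and Irgm1 (-0.69, adjusted p = 0.20). Irf1 averaged 1.09 ± 0.37 at 12 h and 1.61 ± 0.09 at 6 h (SD, n = 6 each). Leaving out replicate 2 of 12 h gave Irf1 an adjusted p of 0.0022, and leaving out replicate 1 called Irf1 (adjusted p = 0.042) and Irgm1 (-0.99, adjusted p = 0.0026). On the slides without a series number alone, a split chosen after seeing the data, 4 of the 7 were lower at 12 h: Irf1 (-0.72), Irgm1 (-0.71), Tgtp1 (-0.57) and Igtp (-0.32). That fit called 1991 of 16463 probes lower and 2749 in either direction. On the 2 arrays of series 13 at each time, Tgtp1 (0.97), Igtp (0.59), Gbp2 (0.57) and Iigp1 (1.12) were instead higher at 12 h by mean, while Irgm1 (-0.64), Gbp3 (-0.15) and Irf1 (-0.10) were lower, and none was called in limma.

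Of a list of 15 other IRG and GBP genes, 5 had a probe, and 2, 3 and 2 of them rose at 3, 6 and 12 h, with medians of 0.42, 0.52 and 0.77. The IRG gene Ifi47 was counted in another list and was not called (-0.12, 0.07 and 0.15). With it the medians were 0.20, 0.40 and 0.69. Irgm2, another GMS GTPase and the neighbour of Igtp, rose at the 3 times (0.61, 1.59 and 1.47). Gbp2b rose at the 3 times as well (0.88, 2.00 and 2.02). Gbp7 rose at 6 h (0.52, adjusted p = 0.020). Gbp4 was not called (-0.03, 0.02 and -0.11), nor was Gbp8 (-0.16, 0.28 and 0.62). In the RefSeq gene order of GRCm38.p6, Gbp7, Gbp3, Gbp2b and Gbp2 lie side by side on chromosome 3, and these 4 rose together at 6 h, whereas Gtf2b, 2 genes beyond Gbp2, was not called at 6 h (0.12). Ifi47 lies near Tgtp1 on chromosome 11, and its 0.07 at 6 h had an adjusted p of 0.69. Around Irf1, Il13, Il5 and Slc22a5 were not called at 6 h and Rad50 fell (-0.32, adjusted p = 0.023). GBP genes, and Tgtp1 with its near copy Tgtp2, share sequence. Probe sequences were not used here, so signal from several copies on 1 probe cannot be told apart.

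Upstream and parallel genes were counted in 6 further lists, to be read against the share of all probes called higher at each time. The lists too were chosen with earlier results of these data known. Of 15 measured interferon-gamma signalling genes, 3, 7 and 3 rose at 3, 6 and 12 h (list medians 0.11, 0.36 and 0.19). Ifng itself, the gene of the cytokine, averaged 0.10 at 3 h, rose by 0.37 ± 0.08 (SE; adjusted p = 0.038 in limma) at 6 h and averaged 0.09 at 12 h. Irf8 rose at the 3 times (1.30, 1.67 and 1.15), as did Socs3, a feedback inhibitor of JAK signalling (0.54, 1.20 and 1.56). Jak2 rose at 3 h (1.08), Irf9 and Socs1 at 6 h (0.98 and 0.95) and Irf2 at 12 h (0.80).

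Of 12 antigen processing genes of the interferon-gamma response, 1, 7 and 4 rose at 3, 6 and 12 h (medians 0.08, 0.50 and 0.31), with Tapbp (tapasin, which loads peptide on MHC class I) at 0.59, 0.84 and 1.20. B2m rose by 0.64 at 6 h and 1.24 at 12 h, and the proteasome activator genes Psme2 at 6 h (0.98) and Psme1 at 12 h (0.98). Of 12 interferon-gamma induced chemokine and surface genes, 4, 3 and 3 rose (medians 0.12, 0.17 and 0.40). Cxcl9 (1.56, 1.64 and 1.37), Cxcl10 (1.00, 0.85 and 1.01) and Cd274, the gene of PD-L1 (1.36, 1.49 and 1.53), were called at each time, and Ccl5 fell at 6 h (-0.36).

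Of 19 type I interferon response genes, 2, 9 and 5 rose (medians 0.13, 0.48 and 0.77). Isg15, a ubiquitin-like modifier, rose by 0.56, 1.22 and 1.53, and Rtp4 by 0.48, 1.34 and 2.44. Of 11 NF-kB induced genes, 8, 8 and 4 rose (medians 0.85, 0.77 and 0.68), led at 3 h by Tnf (1.66), Nfkb2 (1.51) and Rel (1.47). Of 7 other interferon regulatory factors, some of which are also in the signalling list, 3, 6 and 4 rose (medians 0.40, 0.56 and 0.80). Irf4, which T cell receptor signals induce in T cells, rose by 2.88 at 3 h, 2.16 at 6 h and 1.41 at 12 h. Its means ran down over the course, while that of Irf1 was highest at 6 h.

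**Figure D3:**
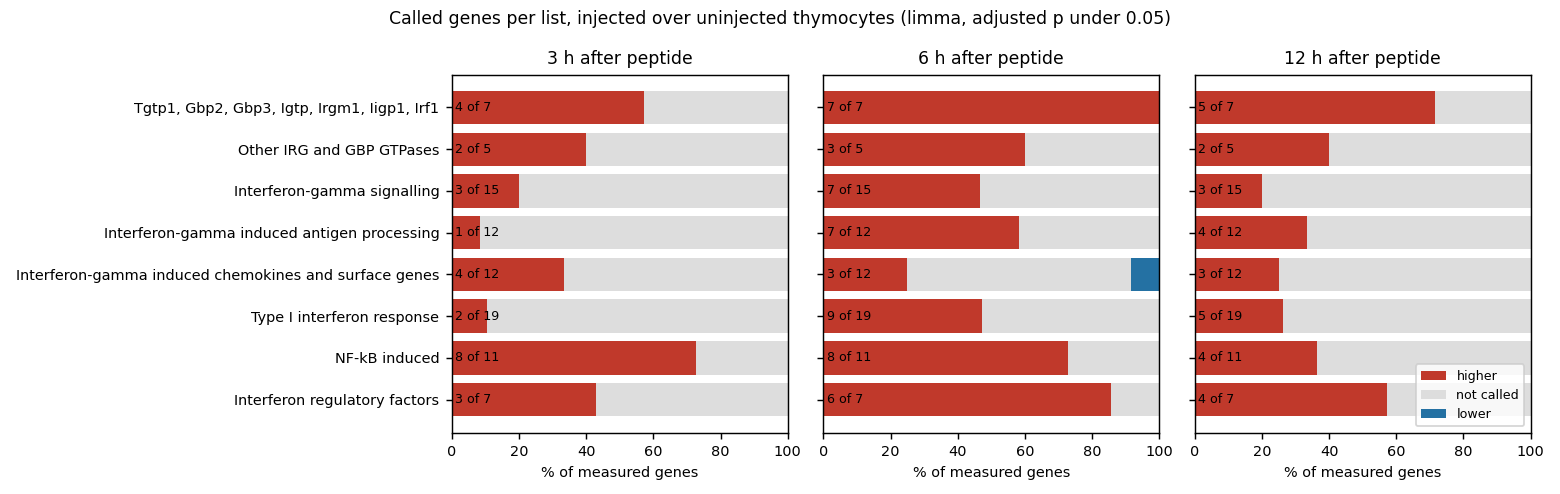
Share of measured genes (x axis, percent) called higher (red), called lower (blue) or not called (grey) at 3, 6 and 12 h after peptide, for the 7 genes described here and 7 lists. The count called higher of those measured is printed in each bar, and was 4, 7 and 5 of 7 for the set and 8, 8 and 4 of 11 for NF-kB induced genes.

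DO11.10 thymocytes were then compared with mhc -/- thymocytes, in which positive selection by MHC is lost. The set split: Igtp, Tgtp1 and Gbp3 fell and Irf1 rose, so that 4 of 7 were called, against 36.3% of all probes. Igtp was between -1.88 and -0.83 on the 6 arrays, 2.30-fold lower in DO11.10 (-1.20 ± 0.12, SE; adjusted p = 0.00018 in limma). No array reached 0. Irf1 was between 0.28 and 0.61 on the 6 arrays, 1.38-fold higher (0.47 ± 0.05, adjusted p = 0.00039).

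Smaller changes were seen in Tgtp1 (-0.38 ± 0.11, SE; adjusted p = 0.032 in limma) and Gbp3 (-0.33 ± 0.06, adjusted p = 0.0033), both below 0 on 6 of 6 arrays. Tgtp1 lost its call without replicate 1 or 2 (adjusted p = 0.096 and 0.098). In 1 fit of all groups neither was called (adjusted p = 0.23 for Tgtp1 and 0.59 for Gbp3). Gbp2 (0.03), Irgm1 (-0.12) and Iigp1 (-0.06) were not called, although Irgm1 was without replicate 1 (-0.19, adjusted p = 0.047). Relatives split too: Irgm2 (-0.78) and Gbp8 (-1.88) fell, while Gbp2b (1.02) and Gbp7 (0.51) rose. Gbp2b and Gbp2, side by side on the chromosome and both high after peptide, thus had 1.02 and 0.03 here. Ifng averaged 0.04 (adjusted p = 0.70). Among marker lists, 6 of 11 thymic epithelial genes rose (Prss16 by 2.60 and Ctsl by 2.50) and 2 fell, and 2 of 11 macrophage and dendritic cell genes rose and 4 fell. Their part in the GTPase values was not tested.

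In the hybridoma, HDAC7-VP16 was set against MSCV_A. None of the 7 was called (0 of 7, with 0 at an unadjusted p under 0.05 in limma), against 2.72% of probes. Differences ran from -0.16 (Gbp3) to 0.20 (Tgtp1). Dye orientation separated the arrays. Tgtp1 was between 0.34 and 1.23 on 5 HDAC7-VP16 arrays with the named RNA in Cy5 and between -1.05 and -0.43 on the 5 with it in Cy3. Gbp3 averaged 1.43 and -0.91 in these orientations. On MSCV_A arrays the Cy5 minus Cy3 difference was 0.83 for Tgtp1 and 0.52 for Gbp3. Irf1, with a difference of -0.11 on HDAC7-VP16 arrays, averaged -0.30 ± 0.22 with HDAC7-VP16 and -0.26 ± 0.25 with MSCV_A (SD, n = 10 and 12).

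**Figure D4:**
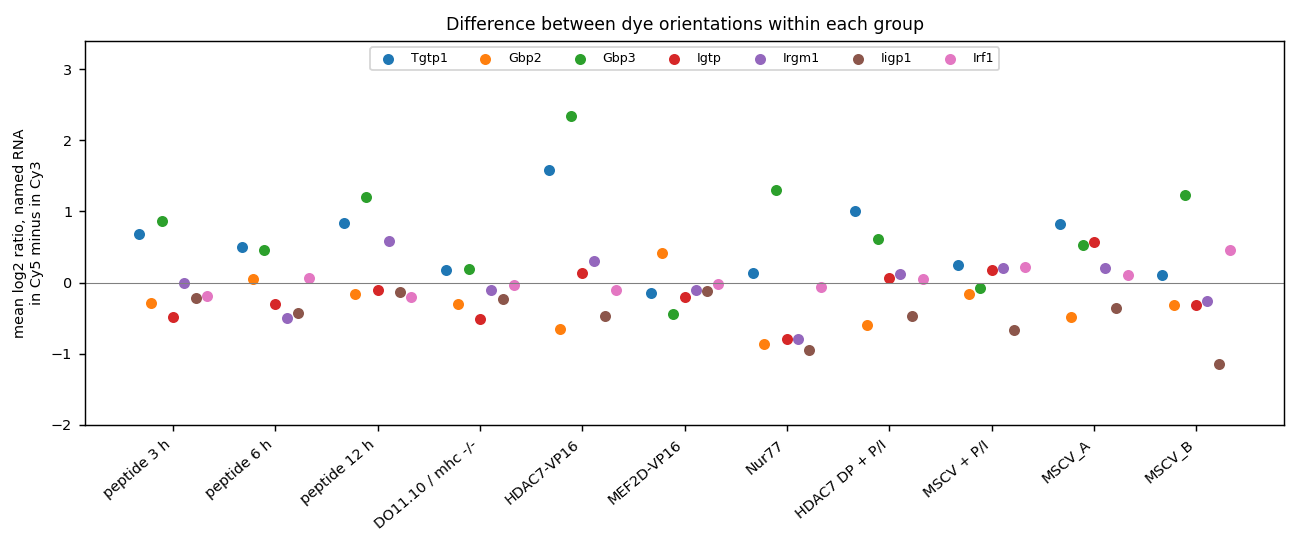
Mean log2 ratio of arrays with the named RNA in Cy5 minus that of arrays with it in Cy3 (y axis), for each of the 7 genes (colours) in each group (x axis). Gbp3 (2.34) and Tgtp1 (1.58) differ most on HDAC7-VP16 arrays, while Irf1 stays between -0.21 and 0.46 in the 11 groups.

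Stimulation with PMA and ionomycin, set against MSCV_A, also called 0 of 7, against 12.5% of probes, and 3 had an unadjusted p under 0.05 in limma. Irf1 was -0.31 ± 0.11 (SE; adjusted p = 0.068), Igtp -0.33 (adjusted p = 0.079) and Irgm1 0.25 (adjusted p = 0.075). Irf1 crossed the threshold when MSCV_A replicate 3 or 7 or stimulated replicate 1 was left out (adjusted p 0.034 to 0.046). It was called at -0.44 (adjusted p = 0.027) when the sign of MSCV_A replicates 3 and 9 was turned. The titles state the direction of these arrays, but it was treated here as unsettled. Leaving out MSCV_A replicate 3 also called Igtp (-0.37, adjusted p = 0.040), and leaving out stimulated replicate 7 called Irgm1 (0.30, adjusted p = 0.037). In the same comparison 10 of 11 NF-kB induced genes rose. Irf4 rose by 3.43, Tnf by 3.15, Socs1 by 2.86, Cd274 by 2.64 and Jak2 by 1.08, while the interferon target Ifit2 fell by 1.11. Ifng differed by -0.02 (adjusted p = 0.97).

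HDAC7 DP was set against the empty virus, both stimulated, and 0 of 7 were called, against 1.65% of probes, with 1 at an unadjusted p under 0.05 in limma. That gene was Gbp3, at 0.55 (adjusted p = 0.38), with 7 arrays between 0.47 and 1.36 and replicate 2 at -0.98. Without that array Gbp3 was called at 0.76 (adjusted p = 0.033). Irf1 averaged -0.54 ± 0.24 with HDAC7 DP and -0.57 ± 0.23 with the empty virus (SD, n = 8 each).

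MEF2D-VP16 gave the clearest hybridoma change, in Irf1. Its 4 arrays had 0.37, 0.35, 0.41 and 0.47 over untreated cells, against -0.41, -0.46, -1.04 and -0.75 on the 4 MSCV_B arrays, and the groups did not overlap. Irf1 was thus 2.10-fold higher (1.07 ± 0.14, SE; adjusted p = 0.0011 in limma). Over untreated cells Irf1 averaged 0.40 with MEF2D-VP16, which is 1.32-fold. The empty virus averaged -0.67 on MSCV_B arrays and -0.26 on MSCV_A arrays, so the size depends on the control. The share of all probes on which the 2 groups do not overlap was not counted. In all, 3 of 7 were called, against 12.6% of probes. Gbp3 fell by 1.18 ± 0.33 (adjusted p = 0.044), with -1.12, -0.44, -0.52 and -0.32 on MEF2D-VP16 arrays, against 1.07, 1.31, -0.40 and 0.32 on MSCV_B arrays. These overlap. Gbp3 lost its call in 6 of the 8 fits that left out an array, which were those without MEF2D-VP16 replicate 1, 2 or 3 or MSCV_B replicate 1, 2 or 4 (adjusted p 0.058 to 0.13).

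Irgm1 fell by 0.61 ± 0.13 with MEF2D-VP16 (SE; adjusted p = 0.012 in limma), with -0.34, -0.18, -0.21 and -0.16 against 0.11, 0.41, 0.37 and 0.68. The groups did not overlap, and the share of all probes that separate in this way was not counted. Against all 16 empty-virus arrays the difference was -0.27 (adjusted p = 0.37), since Irgm1 averaged -0.07 on MSCV_A arrays and 0.39 on MSCV_B arrays. No other member of the set was called. Among relatives Gbp8 rose by 1.15. In the lists, Stat2 (0.66) and Ifi204 (1.38) rose, while Ccl5 (-1.26) and Ifit1 (-1.11) fell.

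Nur77, an orphan nuclear receptor induced by T cell receptor signals, was set against the same 4 MSCV_B arrays. In limma 0 of 7 were called, against 6.91% of probes, and 4 had an unadjusted p under 0.05. These were Irgm1 (-0.66, adjusted p = 0.059), Gbp2 (-0.52, adjusted p = 0.11), Iigp1 (0.47, adjusted p = 0.15) and Gbp3 (-0.41, adjusted p = 0.24). Single arrays decided 3 of these: Gbp2 was called without MSCV_B replicate 4 (-0.68, adjusted p = 0.035), Irgm1 without Nur77 replicate 3 (-0.82, adjusted p = 0.026) and Iigp1 without Nur77 replicate 4 (0.64, adjusted p = 0.018). Irf1 had -0.91, -0.85, -1.06 and -0.59 on Nur77 arrays, against -0.41, -0.46, -1.04 and -0.75 on MSCV_B arrays, and the groups overlapped (-0.19, adjusted p = 0.57). Gbp8, which rose with MEF2D-VP16, lay between 0.77 and 1.73 over untreated cells on the Nur77 arrays.

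The empty virus was compared with untreated cells on the same array as the background of these groups. In MSCV_A, 0 of 7 were called in limma, against 1.97% of probes, and 3 had an unadjusted p under 0.05. These were Gbp3 (0.42, adjusted p = 0.25), Igtp (0.23, adjusted p = 0.24) and Irf1 (-0.26, adjusted p = 0.11). Irf1 was called at -0.30 (adjusted p = 0.047) without replicate 10. With the sign of replicates 3 and 9 turned, limma called 0 of 16463 probes, with 1376 at an unadjusted p under 0.05. Irf1 was then -0.14 (adjusted p = 0.72), Gbp3 0.25 (adjusted p = 0.66) and Igtp 0.20 (adjusted p = 0.54). In MSCV_B, 3 of 7 were called, against 5.72% of probes: Irf1 fell by 0.67 ± 0.08 (SE; adjusted p = 0.0051), and Gbp3 (0.58, adjusted p = 0.035) and Irgm1 (0.39, adjusted p = 0.0498) rose. Gbp3 lost its call without replicate 1, 2 or 4 (adjusted p 0.074 to 0.13) and Irgm1 without any one of the 4 (0.075 to 0.19). Without a dye term none of the 3 was called. Irf1 was below 0 on 10 of 12 MSCV_A arrays (8 of 12 with those signs turned), 9 of 10 HDAC7-VP16 arrays, 8 of 8 in each stimulated group and 4 of 4 with MSCV_B and with Nur77, and above 0 on 4 of 4 with MEF2D-VP16.

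**Figure D5:**
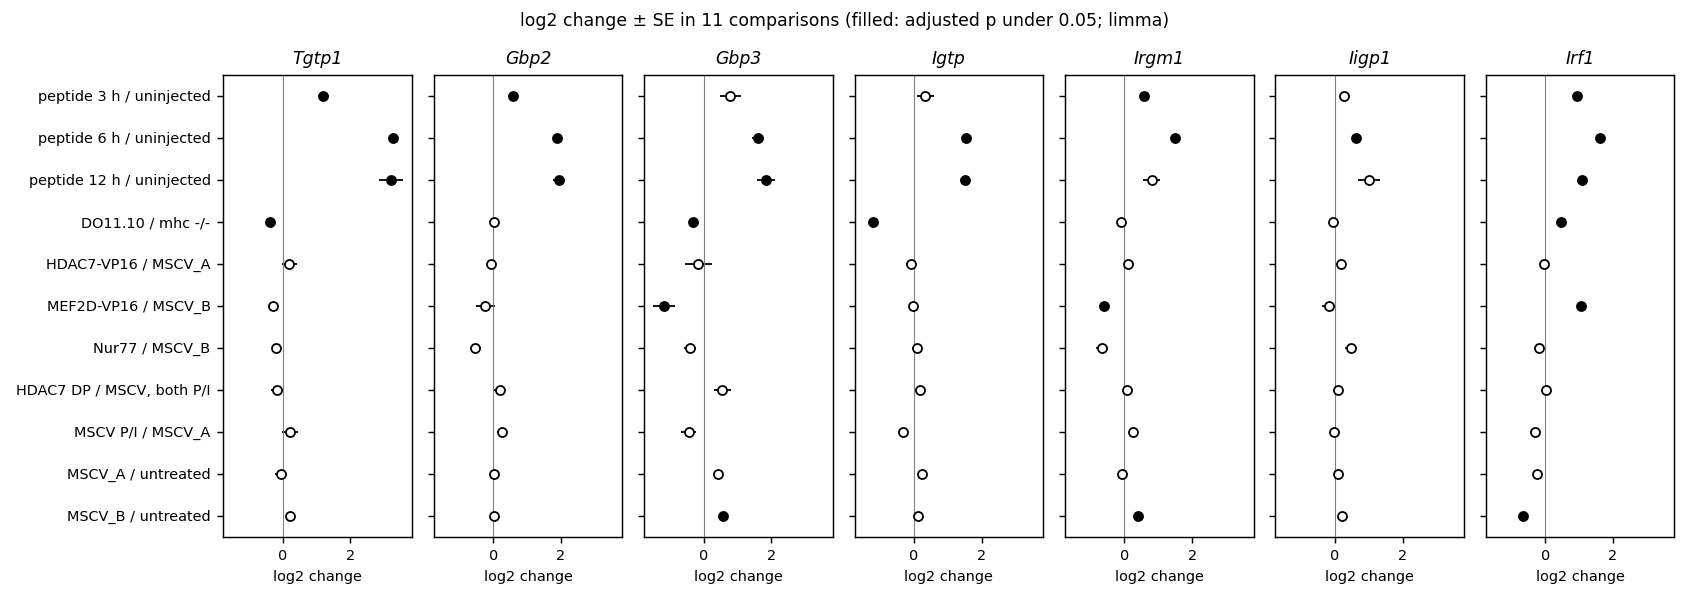
Log2 change with its SE (x axis) of each gene in 11 comparisons (rows, named group over its partner). Filled points had an adjusted p under 0.05 in limma. The 7 genes are higher together at 6 h after peptide, from 0.61 for Iigp1 to 3.25 for Tgtp1, while the hybridoma rows hold 6 filled points, with MEF2D-VP16 and MSCV_B.

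Over the 11 groups the 3 peptide times had the highest means for every gene but Iigp1, for which Nur77 (0.68) came between 12 h and 6 h. That Nur77 mean was split by dye, with 0.21 for the named RNA in Cy5 and 1.15 in Cy3. On MSCV_B arrays Iigp1 was split likewise (-0.36 and 0.78). For Tgtp1, 6 h and 12 h were apart by 0.06, less than the SD of either, and then 3 h followed by a gap of 1.99, larger than both SDs. In the other 8 groups the means of Tgtp1 lay between -0.38 and 0.22, and no neighbours in that order differed by more than the larger SD. Gbp2 had its one gap above the spread between 6 h and 3 h (1.32), and Gbp3, Irgm1 and Iigp1 had none. Igtp had such gaps below 12 h (1.18) and above DO11.10 over mhc -/- (1.10), which was its lowest group. Irf1 had 4, among them 6 h to 12 h (0.51) and MEF2D-VP16 to the next group (0.66).

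Members were alike over the 11 group means to different degrees. Pearson's r was highest for Tgtp1 with Gbp2 (0.94) and lowest for Iigp1 with Irf1 (0.37). The 3 peptide groups share the kind of partner RNA, hold the highest means, and no p is given. Among all other named probes the mean of the 7 was most like Saa3 (r = 0.98 over 11 groups), an acute-phase protein gene, then Irgm2 (0.98), the chemokine genes Ccl2 (0.96) and Ccl9 (0.96), and Clec7a (0.95), the gene of the myeloid receptor dectin-1. Saa3 averaged 1.14, 1.75 and 1.99 at 3, 6 and 12 h. For single members the closest was Saa3 for Tgtp1 (0.98), Socs3 for Igtp (0.97), Il6 for Irgm1 (0.97), Hcar2 for Iigp1 (0.96), Gm26504 for Gbp3 (0.94), Hrct1 for Gbp2 (0.94) and Swap70 for Irf1 (0.92). Hrct1 moved by at most 0.15 in the peptide groups, so that likeness of pattern there is not likeness of size.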

How the data were processed

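The authors deposited 1 log2 ratio per probe and array (base assumed to be 2). How arrays were scanned, background-corrected and normalized is not given in the sources used here. Aminoallyl cDNA was coupled to Cy3 or Cy5, per the labels' protocols. There were 16463 probes, 0 missing values and array medians of -0.021 to 0.023. Probe intensities and thus depth are unknown, and the number of arrays limits precision.

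Arrays were centred on their median. limma 3.58.1 in R 4.3.3 (lmFit, eBayes) tested ratios against 0 or differences of group means, with a dye term, and was tested on simulated data. Groups follow the titles and descriptions. HDAC7-VP16 replicate 1 has a source name that gives the empty virus and was kept. In the peptide groups 4 slide names recur between times, but these arrays hold different values. Alternatives were no dye term, no centring, quantile normalization, other fits and controls, slide series and leaving out arrays. Genes named from lists are the called ones with the largest change, up to 4 a list and peptide time and up to 2 elsewhere. Members and lists were chosen with earlier results of these data known.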

Additional observations from a re-analysis of the deposited data

Results flagged for a closer look

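In groups of 4 to 10 arrays, a value far from the others of its group was found in 6 of 70 combinations of gene and group, where chance gives about 1 in 20. Tgtp1 in replicate 1 at 12 h after peptide was 5.31, above 2.40 to 3.49 on the other arrays. Gbp3 in replicate 2 at 3 h was -1.26, below 1.03 to 1.33. Irgm1 in replicate 2 at 6 h was 2.17, above 1.23 to 1.54. In the hybridoma, Gbp3 in HDAC7 DP replicate 2 was -0.98, below 0.47 to 1.36. Irgm1 in HDAC7-VP16 replicate 5 was 0.73, above -0.30 to 0.22. Igtp in the stimulated empty-virus replicate 2 was 0.23, above -0.26 to -0.09. The 3 peptide arrays were on slides of series 13.

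Between peptide times, the change of Gbp2 was larger at 6 h than at 3 h by 1.32 (adjusted p = 0.0074 in limma), as tested by the difference itself.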

How the results depend on the processing

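Of 1596 alternatives to single-gene values, 1488 kept the call or its absence, 49 gained a call, 54 lost it and 5 moved in size. Uncalled values could change sign and still count among the 1488. Gbp3 with HDAC7-VP16 over MSCV_A, for example, ran from -0.38 to 0.10 on leaving out 1 array. None reversed a called value. Counts moved as follows. Leaving out 1 array gave 2 to 5 members and 100 to 654 probes at 3 h (at most 155 without replicate 3, 4, 5 or 6), 279 to 996 probes at 6 h (at most 388 without replicate 3, 4, 5 or 6), and 1 to 5 members and 46 to 1832 probes at 12 h (1832 and 1629 without replicate 1 or 2, at most 94 without another). It gave 1 to 6 probes for 6 h minus 3 h (6 and 5 without replicate 1 of 3 h or 2 of 6 h), 0 to 2 members and 123 to 1513 probes for 12 h minus 6 h (1513 and 1453 without replicate 1 or 2 of 12 h, at most 272 without any other), 0 to 1 member and 178 to 333 probes for MSCV_A (at most 210 without replicate 1, 5, 7, 11 or 12), and 1 to 2 members and 347 to 448 probes for MSCV_B. It gave 0 to 2 members for stimulation, 0 to 1 for HDAC7 DP, and 0 to 1 member and 677 to 1255 probes for Nur77 (677 and 695 without MSCV_B replicate 1 or 3).
With all groups in 1 fit, probes called were 735 at 3 h, 3011 at 12 h, 37 for 6 h minus 3 h (5 members), 1044 for 12 h minus 6 h (2 members), 427 for MSCV_B (1 member), 411 for HDAC7 DP and 652 for Nur77, and members called were 2 for DO11.10 (Gbp3 and Tgtp1 lost) and 1 each for MSCV_A, stimulation and MEF2D-VP16. Quantile normalization gave 862 probes at 12 h, 44 for 6 h minus 3 h (2 members), 239 for 12 h minus 6 h (2 members) and 543 for MSCV_B (1 member). Without the dye term there was 1 probe for 6 h minus 3 h, and there were 20 for MSCV_B (0 members), 284 for HDAC7-VP16 and 365 for Nur77.
With slide series as a block there were 1393 probes at 6 h, 2530 at 12 h, 118 for 6 h minus 3 h (5 members) and 1246 for 12 h minus 6 h (1 member). Slides with no series number alone gave 1906 at 6 h, 4067 at 12 h and 2749 for 12 h minus 6 h (4 members), and series 13 alone gave 7 for 6 h minus 3 h and 0 for 12 h minus 6 h. There, single values at 12 h were 4.40 for Tgtp1, 2.53 for Gbp2, 2.12 for Igtp and 2.14 for Iigp1, and 1.02 for Iigp1 at 6 h. Series 14 alone gave 41 probes for MSCV_A, 7 for HDAC7-VP16 and 781 for stimulation. Series 15 alone gave 189, 703, 745 and, for HDAC7 DP, 27.
Against untreated cells, members called were 1 for HDAC7-VP16, 2 for stimulation and 3 for Nur77 (2167 probes). With all 16 empty-virus arrays as control there were 238 probes for HDAC7-VP16 and 1 member for Nur77. Averaging arrays of the same slide number gave 1 member for MSCV_A and 101 probes for HDAC7 DP, and turning the sign of MSCV_A replicates 3 and 9 gave 0 probes for MSCV_A and 1 member for stimulation. The cause of these shifts was not tested. No paired analysis was possible because the labels number no replicates and do not say whether slides of the same number share RNA. Replicate numbers here follow accession order. Most slides of series 14 have a slide of the same number, group and dye in series 15. The main fits treated these as separate arrays, and averaging them gave 101 probes for HDAC7 DP, against 271. As a block, slide series gave 413 probes for MSCV_A, 480 for HDAC7-VP16, 2097 for stimulation and 328 for HDAC7 DP, each within 1.5 times of the count without it. Spot intensities were not used, so signal over background limits are unknown.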
